A study of Mus musculus with 9 samples.

Results

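The 10 genes of inflammatory NF-kB signalling followed here were taken from the 32285 features of the matrices by their gene symbols: Tnf, Il1b, Il6, Il1rn, Nfkb1, Relb, Nfkbia, Tnfaip3, Ptgs2 and Icam1. All 10 symbols were found, and their UMIs (unique molecular identifiers, the tags by which single RNA molecules are counted) were summed in each of 9 single-nucleus libraries, over all nuclei and within classes of nuclei gated by marker genes. The rule uses the symbols alone and no measured value, but the list of symbols was chosen with earlier results of these data known.

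NF-kB is a family of dimeric transcription factors that waits in the cytoplasm bound to inhibitor proteins. Signals from TNF, IL-1 or Toll-like receptors lead to the breakdown of the inhibitor, the dimer enters the nucleus, and it switches on cytokines, adhesion molecules and also its own inhibitors, which end the response. In adipose tissue, TNF and IL-1 are best known as products of macrophages that gather around dying adipocytes in obesity.

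Nuclei came from epididymal adipose tissue (epiAT), a visceral fat depot beside the epididymis, of male C57BL/6J mice, and each library pooled 5 mice. The lean controls were C (18 weeks old), CC (26 weeks) and CCC (39 weeks), on low-fat or chow diet throughout. H (18 weeks old) followed 12 weeks of high-fat feeding (HFD), and HH (31 weeks old) followed 25 weeks of it. Weight loss (WL) groups had the same HFD followed by 8 weeks of chow: HC (26 weeks old) after 12 weeks of HFD and HHC (39 weeks old) after 25 weeks. HCH (30 weeks old) had 12 weeks of HFD, 8 weeks of chow and then 4 weeks of HFD, and CCH (30 weeks old) met HFD only in its last 4 weeks. Each group was 1 library, so no value has an error between mice or between libraries. All intervals are 95% and cover counting error only: exact Poisson for a level, exact conditional for a ratio of 2 levels. A level is given in CPM, counts per 1e6 UMIs of the same nuclei, with mitochondrial genes and Malat1 left out of the total. A ratio of at least 2-fold with at least 20 UMIs over both libraries is called a difference of that size between those libraries, and the share of all measured genes past the same limit is given beside it.

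After filtering, 73308 nuclei were kept, from 4007 in CC to 12586 in HH, with 11983608 UMIs (CCC) to 31461145 UMIs (C) per library. Markers placed 63534 of them (86.7%) in a class, and 6962 of these (11%) lay near the limits of the gate. Macrophage-gated nuclei made up 9.83% (CCC) to 15.2% (C) of the lean controls and 55.0% of H, 44.7% of HH, 25.6% of HC, 40.4% of HHC, 25.2% of CCH and 37.6% of HCH. Both macrophage subsets named here were split from them by their own markers: lipid-associated macrophages (LAMs, marked by Trem2, Gpnmb and Mmp12 among others) and perivascular macrophages (PVMs, marked by Lyve1, Cd163 and F13a1 among others). LAM-gated nuclei were 1.86%, 2.55% and 13.5% of the macrophage-gated nuclei of the lean libraries C, CC and CCC, 58.7% and 52.3% on HFD (H and HH), 61.4% and 70.1% after WL (HC and HHC), 3.90% in CCH and 39.2% in HCH. By the start of their library names in the labels, C, H, HH, CCH and HCH belong to set S075, and CC, CCC, HC and HHC to set S019; what a set stands for is not given there. Thus HH against CC is the one comparison with a control that crosses the sets, and HH against C is given beside it. HH (31 weeks old) was older than both C (18 weeks) and CC (26 weeks), so age and diet cannot be told apart in either. No more than 42 barcodes (0.439%) were shared by any pair of libraries.

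The promoters of 5 members are shown first, 1 for each kind of member whose pattern is described below: a macrophage cytokine (Tnf), an interleukin (Il6), an inhibitor (Nfkbia), an adhesion molecule (Icam1) and an enzyme (Ptgs2). Each line holds the 250 bases before the transcription start in RefSeq (build GRCm38.p6), 5′ to 3′ on the strand of the gene. Capitals mark matches to GGNNNTTCC or, on the other strand, GGAANNNCC, a loose form of a κB element with any base at N.

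Tnf (chr17:35202008-35202257, minus strand): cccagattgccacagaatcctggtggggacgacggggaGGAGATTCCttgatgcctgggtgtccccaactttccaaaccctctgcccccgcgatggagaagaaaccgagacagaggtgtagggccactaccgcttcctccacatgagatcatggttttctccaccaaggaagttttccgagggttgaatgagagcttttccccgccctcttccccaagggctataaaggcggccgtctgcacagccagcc
Il6 (chr5:30012864-30013113, plus strand): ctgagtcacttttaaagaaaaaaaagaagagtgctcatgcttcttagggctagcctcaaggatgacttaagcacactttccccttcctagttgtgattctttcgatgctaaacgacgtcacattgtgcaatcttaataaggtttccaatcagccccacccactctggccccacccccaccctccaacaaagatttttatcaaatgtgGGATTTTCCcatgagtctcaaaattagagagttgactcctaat
Nfkbia (chr12:55492648-55492897, minus strand): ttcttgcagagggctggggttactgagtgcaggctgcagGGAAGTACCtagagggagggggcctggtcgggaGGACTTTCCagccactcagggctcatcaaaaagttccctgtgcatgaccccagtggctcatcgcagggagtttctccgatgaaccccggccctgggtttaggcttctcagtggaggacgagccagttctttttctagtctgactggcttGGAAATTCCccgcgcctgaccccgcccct
Icam1 (chr9:21015690-21015939, plus strand): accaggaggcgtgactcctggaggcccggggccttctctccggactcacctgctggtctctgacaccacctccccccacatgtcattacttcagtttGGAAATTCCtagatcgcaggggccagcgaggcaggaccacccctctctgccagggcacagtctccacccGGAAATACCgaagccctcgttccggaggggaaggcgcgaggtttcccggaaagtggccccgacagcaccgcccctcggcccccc
Ptgs2 (chr1:150099781-150100030, plus strand): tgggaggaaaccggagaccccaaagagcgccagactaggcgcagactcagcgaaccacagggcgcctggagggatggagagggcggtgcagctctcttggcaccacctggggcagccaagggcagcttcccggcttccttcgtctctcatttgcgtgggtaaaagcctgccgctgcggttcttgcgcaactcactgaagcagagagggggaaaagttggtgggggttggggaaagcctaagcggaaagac

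These letters occur in 5144 of all 32851 promoter windows of this length (15.7%), so a match by itself is common. Among the members, Nfkbia held matches at 3 places, the last of them 29 to 21 bases before its start and reading as a match on both strands. Icam1 held matches at 2 places, and Tnf and Il6 at 1 each. The Ptgs2 window held none. Of the other members, Tnfaip3 and Il1rn had a match in at least 1 of their alternative promoters, Il1b had none, and no window was used for Nfkb1 or Relb. A match is a description of letters and not a measured binding site.

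Tnf (tumour necrosis factor, ENSMUSG00000024401, chromosome 17 from 35199381 to 35202007, a protein-coding gene on the minus strand) was measured mainly in macrophage-gated nuclei of the mice that had eaten HFD for long. Over all nuclei its level was 0.699, 0.385 and 2.59 CPM in the lean libraries (C, CC and CCC), 18.6 and 17.5 CPM in H and HH, 5.19 and 11.9 CPM after WL (HC and HHC), 0.753 CPM in CCH and 6.30 CPM in HCH. All 3 lean controls and CCH, which met HFD for 4 weeks only, lay below every library with an earlier long HFD, and both WL libraries stayed above their lean controls. The order was H, HH, HHC, HCH, HC, CCC, CCH, C and CC, and of these neighbours H and HH, HCH and HC, CCH and C, and C and CC overlapped in their counting intervals. The ratio was 26.6 (17.4 to 42.9) for H against C, 25.0 (16.3 to 40.3) for HH against C and 45.5 (19.4 to 141) for HH against CC, where CC held 5 UMIs. After WL it was 13.5 (5.56 to 42.6) for HC against CC and 4.61 (3.18 to 6.90) for HHC against CCC. On renewed HFD, HCH was 8.36 (5.15 to 14.4) times CCH.

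**Figure D1:**
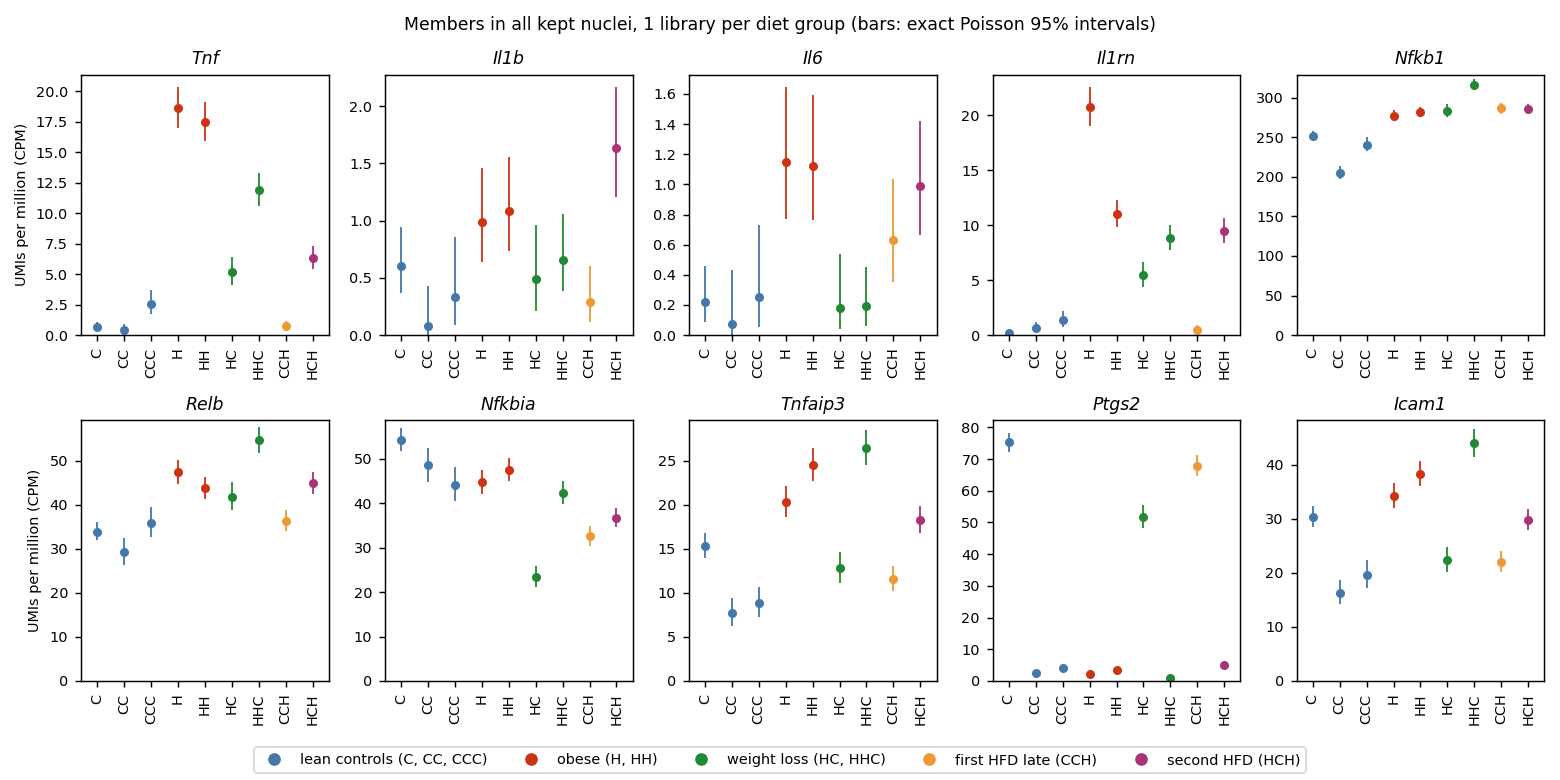
CPM of each of the 10 genes over all kept nuclei (y axis, each panel on its own linear scale from 0) in the 9 libraries (x axis). Points are single libraries and bars are exact Poisson 95% intervals. Tnf and Il1rn are high in H, HH, HC, HHC and HCH and low in the 3 lean controls and CCH, and Ptgs2 is high in C, HC and CCH.

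Over all nuclei, more macrophage nuclei and more Tnf RNA per macrophage nucleus cannot be told apart, so levels within the gated class were compared next. Macrophage-gated nuclei carried 74.1% of the 1607 Tnf UMIs and 31.7% of all UMIs. Within them Tnf was 1.96, 0.607 and 11.9 CPM in the lean libraries (C, CC and CCC), 28.2 and 29.6 CPM in H and HH, 15.5 and 21.1 CPM after WL (HC and HHC), 1.81 CPM in CCH and 10.6 CPM in HCH. The difference from the lean control thus remained within the class in H (14.4-fold, 7.23 to 33.6), HH (15.1-fold against C, 7.57 to 35.2) and HC (25.5-fold, 4.42 to 1023, with 1 UMI in CC). HCH exceeded CCH, whose mice met HFD for 4 weeks, 5.84-fold (3.15 to 12.0). The level of HCH was below that of the lean CCC but within the CCC interval (6.53 to 20.039). The CCC level rests in part on 1 nucleus, described below, so the order of HCH and CCC is not settled. In HHC against CCC the ratio was 1.77 (1.03 to 3.29), below the limit, and CCC, with 14 UMIs, was the highest of the lean controls. It passed the limit, with a log2 ratio of 1.16, when nuclei with more than 3000 genes were kept.

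Within the single libraries that had at least 50 LAM-gated nuclei, Tnf was lower in PVM-gated than in LAM-gated nuclei, with an interval that included no difference in CCH. In C and CC, with fewer, PVM-gated nuclei held 3 and 1 UMIs and LAM-gated nuclei none. In H it was 34.9 CPM in LAM-gated nuclei and 7.09 in PVM-gated nuclei, a ratio of 4.92 (2.89 to 9.12). In HH this ratio was 6.60 (3.80 to 12.6), and after WL it was 11.2 (1.92 to 449) in HC, where PVM-gated nuclei held 1 UMI, and 12.4 (4.18 to 60.8) in HHC. HCH had a ratio of 3.39 (2.03 to 5.92). In the lean CCC it was 6.74 (1.71 to 31.4) on 7 and 4 UMIs, and in CCH 9.98 (0.833 to 87.1) on 2 and 3 UMIs. Macrophage-gated nuclei of neither subset lay between the LAM and PVM levels, with 22.9 and 23.9 CPM in H and HH, 11.4 and 21.8 CPM in HC and HHC, and 9.08 CPM in HCH. In C they had 5.86 CPM (5 UMIs). The summed level of the 8 LAM markers in macrophage-gated nuclei was 115 to 1195 CPM in the lean controls, 7127 to 9175 in H and HH, 5857 and 10910 after WL (HC and HHC), 220 in CCH and 3417 in HCH, and none of the 8 was at 0 in any library. The summed 8 PVM markers ran the other way, from 5209 to 7676 CPM in the lean controls to 1193 to 1431 in H, HH, HC and HHC. The part of this shift between subsets in the Tnf difference was not tested. The 32 LAM-gated nuclei of C held no Tnf UMI. Set against 3 counts there, the Tnf level of LAM-gated nuclei was 1.40-fold higher in H and 1.59-fold higher in HH. These 2 folds leave out the counting error of H and HH. The 14 LAM-gated nuclei of CC also held none, which allows up to 68.4 CPM (3 counts), so a difference from CC was not detectable at this depth. In the 73 LAM-gated nuclei of CCC, Tnf was 38.4 CPM (15.5 to 79.2, 7 UMIs), an interval that includes the levels of H, HH, HC and HHC. The CCC nucleus rich in Il1rn was LAM-gated. Without it the Tnf UMIs of CCC macrophage-gated nuclei fell from 14 to 10. This level and the LAM to PVM ratio of CCC thus rest in part on 1 nucleus.

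Lymphocyte-gated nuclei also carried Tnf. T or NK-gated nuclei had 51.6 CPM in H (22.3 to 102, 8 UMIs), 50.2 in HH (31.1 to 76.8) and 35.0 in HHC (21.9 to 53.0), against 16.9 in C (4.60 to 43.2, 4 UMIs), 8.20 in CC (1 UMI) and 24.7 in CCC (3 UMIs). HC had 11.8 CPM (2 UMIs), below C and CCC, HCH had 18.7 and CCH 8.70 (3 UMIs). In this class HH against C was 2.98-fold (1.00 to 11.9, where 18.2% of all genes were at least 2-fold higher), HH against CC 6.13-fold (0.985 to 253, against 29.2%) and HHC against CCC 1.42-fold (0.426 to 7.39). B-gated nuclei of HH had 45.3 CPM (26.9 to 71.6), those of H, HC, HHC and HCH 11.2 to 26.5 CPM, and those of C and CCH 11.9 and 5.08 CPM on 1 UMI each. CC and CCC held none there. Adipocyte-gated nuclei had 0 to 1.65 CPM and progenitor-gated nuclei 0 to 1.63 CPM of Tnf over the 9 libraries.

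**Figure D2:**
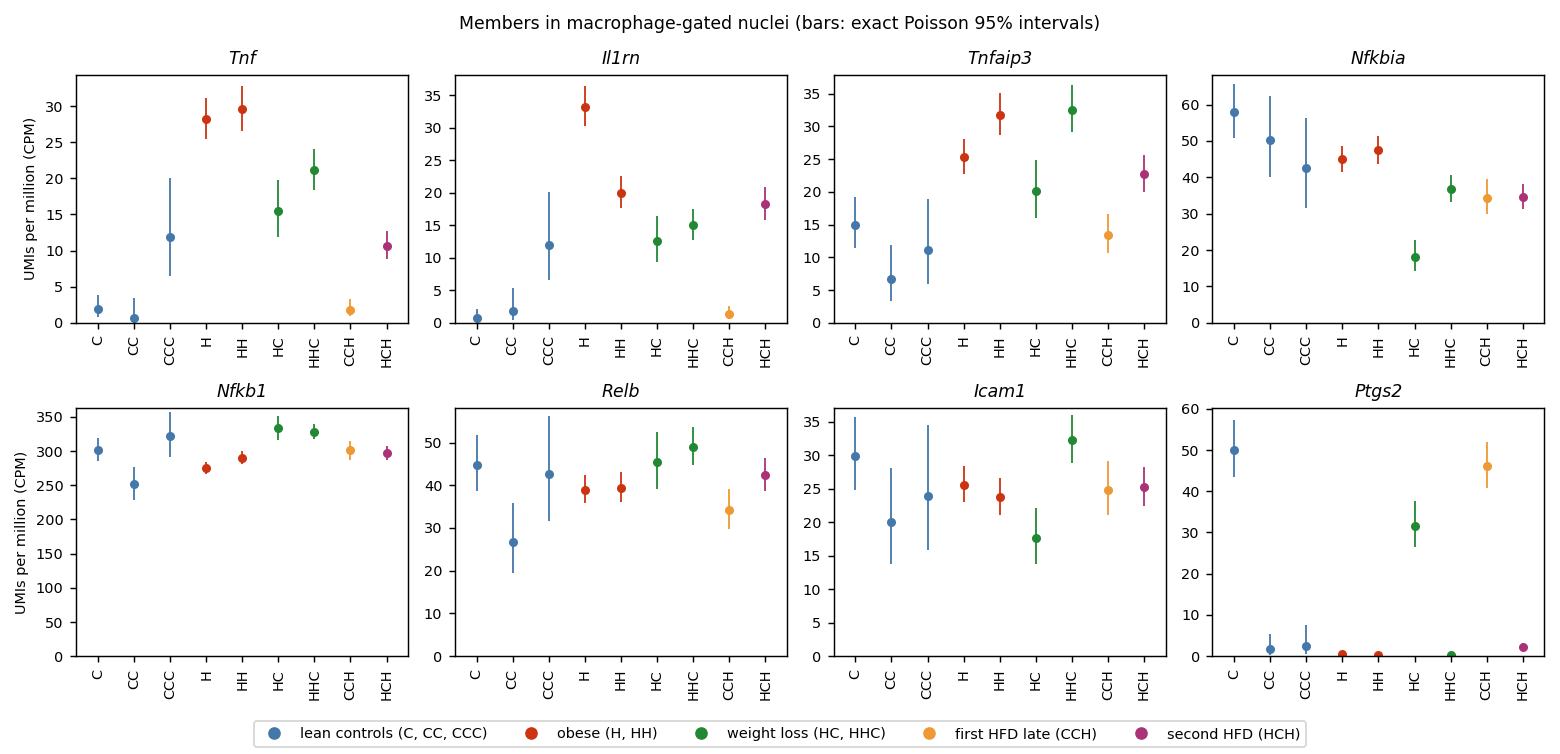
CPM of 8 of the genes in macrophage-gated nuclei (y axis, each panel on its own linear scale from 0) by library (x axis), with exact Poisson 95% intervals. Tnfaip3 and Il1rn are lower in the lean libraries and CCH than in all others, Tnf is lowest in C, CC and CCH, whereas Nfkb1 and Relb differ by less than 2-fold between any pair of libraries and Nfkbia is lowest in HC.

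Il1b (interleukin 1 beta, ENSMUSG00000027398, chromosome 2 from 129364570 to 129371139) was sparse, with 159 UMIs in all. Its level was 0.604, 0.0769 and 0.334 CPM in the lean libraries (C, CC and CCC), 0.988 and 1.09 CPM in H and HH, 0.488 and 0.660 CPM after WL (HC and HHC), 0.293 CPM in CCH and 1.63 CPM in HCH. HCH was the highest, and every neighbouring pair of libraries in the order overlapped in its intervals. HCH exceeded CCH 5.58-fold (2.51 to 14.6), and within macrophage-gated nuclei 4.17-fold (1.64 to 13.6). The 39 UMIs of the macrophage-gated nuclei of HCH lay in 15 of 3602 nuclei, with 11 in a single nucleus, and 31 of them were in PVM-gated nuclei. In H, 10 of 25 UMIs lay in dendritic-gated nuclei, a level of 38.1 CPM in 116 nuclei, of which 38 were near the limit of the gate. HH against CC was 14.1-fold (2.35 to 576) with 1 UMI in CC, and HH against C was 1.80-fold (0.980 to 3.38). A gene on the opposite strand, Il1bos, overlaps Il1b.

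Il6 (interleukin 6, ENSMUSG00000025746, chromosome 5 from 30013114 to 30019981) was also sparse, with 123 UMIs. It was measured at 0.223, 0.0769 and 0.250 CPM in the lean libraries (C, CC and CCC), 1.15 and 1.12 CPM in H and HH, 0.183 and 0.194 CPM after WL (HC and HHC), 0.628 CPM in CCH and 0.988 CPM in HCH. All 4 libraries on HFD at collection were above all 5 libraries on control diet at collection, although neighbours in the order overlapped in their intervals. All 4 of the former are of set S075 and 4 of the latter (CC, CCC, HC and HHC) of set S019, so diet and set cannot be told apart in this split. H exceeded C 5.15-fold (2.21 to 13.9) and HH exceeded C 5.05-fold (2.18 to 13.6), while HC, of the other set, was 6.26-fold lower than H on 3 against 29 UMIs, where 30.3% of all genes were at least 2-fold lower. In contrast to Tnf, the largest number of Il6 UMIs in a class (44) was in progenitor-gated nuclei, the fibroblast-like cells from which adipocytes form. Progenitor-gated nuclei of H held 23 UMIs in 19 of 1931 nuclei, 4.16 CPM (2.63 to 6.24), and those of HH 12 UMIs, 1.82 CPM (0.942 to 3.19). Those of C, CC, CCC and HC held 0 UMIs, which in C allows up to 0.564 CPM (3 counts). In this class CCH and HCH, on HFD, held 2 UMIs each (0.292 and 0.265 CPM) and HHC, on chow, held 5 (0.678 CPM), so the split by diet seen over all nuclei did not hold within it. By level, mast-gated nuclei were above progenitor-gated nuclei in H and HH, on few UMIs. They had 35.5 CPM in H (4.30 to 128, 2 UMIs in 36 nuclei) and 10.7 CPM in HH (2.21 to 31.4, 3 UMIs in 195 nuclei). In CCH, 10 of 15 Il6 UMIs were in macrophage-gated nuclei. In HCH, 17 of 29 Il6 UMIs came from 1 adipocyte-gated nucleus, and without it the log2 ratio of HCH against CCH was -0.62.

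Il1rn encodes the interleukin 1 receptor antagonist, a secreted protein that occupies the IL-1 receptor without signalling (ENSMUSG00000026981, chromosome 2 from 24336853 to 24351494). Its level over all nuclei was 0.191, 0.615 and 1.34 CPM in the lean libraries (C, CC and CCC), 20.7 and 11.0 CPM in H and HH, 5.43 and 8.82 CPM after WL (HC and HHC), 0.502 CPM in CCH and 9.50 CPM in HCH. As with Tnf, the 3 lean controls and CCH were below the other 5 libraries. H exceeded C 109-fold (49.6 to 297), where C held 6 UMIs, and HH exceeded C 57.7-fold (26.2 to 159). The ratio was 17.9 (8.97 to 41.8) for HH against CC, 8.83 (4.29 to 21.1) for HC against CC, 6.60 (3.98 to 11.8) for HHC against CCC and 18.9 (10.7 to 37.1) for HCH against CCH. Of the 16 UMIs of CCC, 12 lay in a single nucleus, and without it the ratio of HHC against CCC was larger.

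Macrophage-gated nuclei carried 78.3% of the 1465 Il1rn UMIs, and 69.3% lay in LAM-gated nuclei. Within macrophage-gated nuclei Il1rn was 0.735, 1.82 and 11.9 CPM in the lean libraries (C, CC and CCC), 33.2 and 20.002 CPM in H and HH, 12.6 and 15.0 CPM after WL (HC and HHC), 1.32 CPM in CCH and 18.2 CPM in HCH. The ratio within the class was 45.2 (15.4 to 220) for H against C, 6.91 (2.24 to 34.6) for HC against CC and 13.8 (6.90 to 32.5) for HCH against CCH. For HHC against CCC it was 1.26 (0.725 to 2.35). The 14 UMIs of Il1rn in CCC macrophage-gated nuclei lay in 3 of 541 nuclei, 12 of them in a single nucleus, so the level of this control rests on that nucleus. Without it the log2 ratio of HHC against CCC was 3.13 for Il1rn, with 2 UMIs in CCC, and 1.30 for Tnf, of which it also held UMIs, both past 2-fold. Within libraries, LAM-gated nuclei exceeded PVM-gated nuclei 19.3-fold (8.20 to 59.7) in H, 9.51-fold (4.54 to 23.9) in HH, 3.37-fold (1.09 to 16.9) in HC, 4.28-fold (2.02 to 10.9) in HHC and 7.75-fold (4.76 to 13.4) in HCH. Macrophage-gated nuclei of neither subset had 1.14 to 9.24 CPM of Il1rn in these 5 libraries. LAM-gated nuclei of the lean libraries had 8.30 CPM in C (1 UMI), 68.4 in CC (14.1 to 200, 3 UMIs) and 76.9 in CCC (14 UMIs, 12 of them in the nucleus above). Those of CCH had 17.0 CPM (5.53 to 39.7, 5 UMIs). These levels were thus not all below those of H, HH, HC, HHC and HCH. The part of the shift between subsets in the Il1rn difference was not tested. LAM-gated nuclei themselves had 17.8 CPM of Il1rn in HC against 48.8 in H (2.74-fold lower, ratio 0.366, 0.265 to 0.493), where 25.4% of all genes were at least 2-fold lower. They had 20.2 CPM in HHC against 30.7 in HH (ratio 0.659, 0.528 to 0.821), short of 2-fold. Sets S019 and S075 also differ in both pairs. Tnf in LAM-gated nuclei was 19.7 CPM in HC and 34.9 in H.

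Nfkb1, which encodes p105 and its processed product p50, a DNA-binding subunit of NF-kB, was broadly present (ENSMUSG00000028163, chromosome 3 from 135584655 to 135691547). Its level was 252, 205 and 241 CPM in the lean libraries (C, CC and CCC), 277 and 282 CPM in H and HH, 284 and 316 CPM after WL (HC and HHC), 286 CPM in CCH and 286 CPM in HCH. The highest library exceeded the lowest 1.54-fold, and no comparison reached 2-fold. The lean controls were nonetheless the 3 lowest, and HHC against CCC was 1.31-fold (1.26 to 1.37) with 8139 and 2886 UMIs. Within macrophage-gated nuclei the range was narrower still, from 252 CPM in CC to 333 in HC, and HHC against CCC was 1.02-fold (0.915 to 1.13). By class, over libraries with at least 50 nuclei of it, Nfkb1 was 344 to 801 CPM in T or NK-gated, 392 to 651 CPM in B-gated and 423 to 576 CPM in dendritic-gated nuclei. It was 122 to 203 CPM in adipocyte-gated and 79.2 to 215 CPM in epithelial-gated nuclei.

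Relb encodes RelB, the subunit of the alternative NF-kB pathway that pairs with p52 (ENSMUSG00000002983, chromosome 7 from 19606217 to 19629438). It was measured at 33.9, 29.3 and 36.0 CPM in the lean libraries (C, CC and CCC), 47.4 and 43.9 CPM in H and HH, 41.9 and 54.7 CPM after WL (HC and HHC), 36.4 CPM in CCH and 44.9 CPM in HCH. H exceeded C 1.40-fold (1.28 to 1.52) and HHC exceeded CCC 1.52-fold (1.36 to 1.70), again under 2-fold. Adipocyte-gated nuclei had 29.0 CPM in H and 12.5 in C, past 2-fold, where 26.7% of all genes were so much higher. CC and CCC had 27.0 and 29.5 CPM there. Endothelial-gated nuclei had 24.6 CPM in HH and 65.4 in C, past 2-fold, where 7.56% of all genes were so much lower. CC had 23.1 CPM there. Dendritic-gated nuclei stood out: H had 271 CPM of Relb (211 to 342), HH 171 CPM (123 to 231), HHC 172 CPM (119 to 240) and HCH 135 CPM (105 to 169), but CCH had 12.5 CPM (2.58 to 36.6, 3 UMIs in 82 nuclei). The dendritic-gated nuclei of C, CC, CCC and HC numbered 21 to 40 and held 1 to 8 Relb UMIs. They had 22.5 CPM (2.72 to 81.2) in C, 128 CPM (55.1 to 252) in CC, 24.7 CPM (0.626 to 138) in CCC and 10.9 CPM (0.275 to 60.6) in HC. The intervals of CCH, C and HC lie below those of H, HH, HHC and HCH, while those of CC and CCC overlap some of them. Over the libraries, 36.5% of dendritic-gated nuclei were near the limit of the gate. Their 8 defining markers summed to 5449 CPM in CCH and 5972 to 7254 CPM in H, HH, HHC and HCH, with 1 marker at 0 in CCH.

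Nfkbia encodes IκBα, the inhibitor that NF-kB itself induces (ENSMUSG00000021025, chromosome 12 from 55489410 to 55492647). Over all nuclei it was 54.3, 48.6 and 44.1 CPM in the lean libraries (C, CC and CCC), 44.7 and 47.5 CPM in H and HH, 23.4 and 42.4 CPM after WL (HC and HHC), 32.6 CPM in CCH and 36.7 CPM in HCH. HC stood below all other libraries, and its interval (21.2 to 25.9) overlapped none of theirs. HC was 2.07-fold lower than CC over all nuclei (ratio 0.482, 0.424 to 0.548), although TMM scaling put its log2 ratio at -0.98, short of 2-fold. It was 2.78-fold lower within macrophage-gated nuclei, where the levels were 18.1 and 50.3 CPM (ratio 0.360, 0.260 to 0.498). The same direction held in adipocyte-gated nuclei, at 14.2 CPM in HC and 29.8 in CC, and in progenitor-gated nuclei, at 23.2 and 53.0 CPM. At least 2-fold lower in HC than in CC were 8.99% of all genes tested in adipocyte-gated and 8.75% in progenitor-gated nuclei. Over all nuclei H was 1.21-fold and HH 1.14-fold lower than C. In adipocyte-gated nuclei HCH exceeded CCH 2.13-fold (1.53 to 2.96), where 17.5% of all genes were at least 2-fold higher. The 10 macrophage markers in adipocyte-gated nuclei summed to 1064 CPM in HCH and 599 CPM in CCH, and their part in the result was not tested.

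Endothelial-gated nuclei, the lining of blood vessels, held 1089 Nfkbia UMIs, 102 CPM over all libraries together. By library they measured 164, 136 and 88.4 CPM in the lean libraries (C, CC and CCC), 63.2 and 83.7 CPM in H and HH, 74.0 and 99.7 CPM after WL (HC and HHC), 74.3 CPM in CCH and 74.1 CPM in HCH. C exceeded H 2.60-fold in this class (ratio 0.384 for H against C, 0.269 to 0.535), where 8.49% of all genes were at least 2-fold lower in H. The 10 macrophage markers in endothelial-gated nuclei summed to 393 to 677 CPM in the lean controls and 1464 and 1815 CPM in H and HH, and their part in the result was not tested.

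Tnfaip3 encodes A20, a ubiquitin-editing enzyme that shuts off NF-kB signalling (ENSMUSG00000019850, chromosome 10 from 19000910 to 19015657). Its level was 15.3, 7.69 and 8.85 CPM in the lean libraries (C, CC and CCC), 20.3 and 24.6 CPM in H and HH, 12.8 and 26.4 CPM after WL (HC and HHC), 11.6 CPM in CCH and 18.3 CPM in HCH. HHC and HH were highest and their intervals overlapped, and C lay above the other lean controls. HH exceeded CC 3.19-fold (2.58 to 3.98) but C only 1.60-fold (1.42 to 1.81), and H exceeded C 1.33-fold (1.17 to 1.50). After WL, HHC exceeded CCC 2.99-fold (2.43 to 3.70), and HHC against HH was 1.08-fold (0.965 to 1.20).

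Macrophage-gated nuclei carried 44.2% of the 3582 Tnfaip3 UMIs. Within them the level was 14.9, 6.67 and 11.1 CPM in the lean libraries (C, CC and CCC), 25.3 and 31.7 CPM in H and HH, 20.1 and 32.5 CPM after WL (HC and HHC), 13.3 CPM in CCH and 22.7 CPM in HCH. HHC exceeded CCC 2.93-fold (1.69 to 5.57), which made Tnfaip3 the single member past 2-fold in this comparison within macrophage-gated nuclei in the main setting. Tnf also passed under several other settings, and Il1rn under some of them, as given at the end. HC exceeded CC 3.01-fold (1.60 to 6.26) and HH exceeded C 2.12-fold (1.62 to 2.83), while H against C was 1.69-fold (1.29 to 2.26). LAM-gated nuclei exceeded PVM-gated nuclei 2.70-fold (1.78 to 4.29) in H, 2.83-fold (1.95 to 4.24) in HH, 3.42-fold (1.27 to 12.9) in HC, 2.77-fold (1.74 to 4.69) in HHC, 5.39-fold (1.47 to 21.5) in CCC and 6.14-fold (3.20 to 11.2) in CCH. In HCH the ratio was 1.71 (1.28 to 2.31), from 30.0 and 17.6 CPM. In C it was 1.20 (0.141 to 4.60) with 2 UMIs in LAM-gated nuclei, and in CC these held none. Macrophage-gated nuclei of neither subset had 37.3 CPM in HHC, where LAM-gated nuclei had 35.5, and 12.7 and 24.8 CPM in H and HH, where LAM-gated nuclei had 32.8 and 40.4. T or NK-gated nuclei had 16.4 to 63.2 CPM. Adipocyte-gated nuclei of HHC had 21.1 CPM against 7.21 in CCC, a ratio of 2.92 (1.77 to 4.84), where 5.81% of all genes were at least 2-fold higher and the 10 macrophage markers summed to 777 and 588 CPM. The gene was also at least 2-fold higher in HHC in other classes. Progenitor-gated nuclei had 17.6 CPM in HHC and 8.46 in CCC, against 12.3% of all genes. Endothelial-gated nuclei had 17.1 and 7.55 CPM (16 and 7 UMIs), against 5.61%. In the endothelial class HH had 8.62 CPM (7 UMIs) and C 24.3, past 2-fold, where 7.56% of all genes were so much lower in HH. CC had 9.25 CPM there (8 UMIs).

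Icam1 encodes an adhesion molecule that leukocytes grip on activated endothelium (ENSMUSG00000037405, chromosome 9 from 21015985 to 21028817, overlapped on the other strand by Gm47079). Over all nuclei it was 30.4, 16.3 and 19.6 CPM in the lean libraries (C, CC and CCC), 34.3 and 38.4 CPM in H and HH, 22.3 and 44.0 CPM after WL (HC and HHC), 22.1 CPM in CCH and 29.8 CPM in HCH. HHC was the highest and stood 2.24-fold (1.95 to 2.59) above CCC. H exceeded C 1.13-fold (1.03 to 1.24).

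Progenitor-gated nuclei showed a larger difference with diet than the whole tissue. There Icam1 was 26.3, 21.9 and 20.8 CPM in the lean libraries (C, CC and CCC), 58.5 and 64.3 CPM in H and HH, 44.0 and 63.2 CPM after WL (HC and HHC), 16.5 CPM in CCH and 32.5 CPM in HCH. The intervals of H, HH, HC and HHC overlapped none of those of the lean controls or CCH. The ratio was 2.22 (1.82 to 2.73) for H against C, 2.44 (2.01 to 2.98) for HH against C, 2.01 (1.45 to 2.83) for HC against CC and 3.03 (2.12 to 4.49) for HHC against CCC. In progenitor-gated nuclei 22.2% of all genes tested were at least 2-fold higher in H than in C, 24.8% in HH than in C, 6.41% in HC than in CC and 12.3% in HHC than in CCC. The 10 macrophage markers in progenitor-gated nuclei summed to 211 to 321 CPM in the lean controls and 742 to 1148 CPM in H, HH and HHC, with 351 CPM in HC and none of the 10 at 0, and their part in the result was not tested. Macrophage-gated nuclei themselves had 17.6 to 32.3 CPM of Icam1, below the progenitor level in H, HH, HC and HHC. Adipocyte-gated nuclei of HCH had 11.5 CPM (7.14 to 17.6, 21 UMIs) against 2.79 in CCH (1.34 to 5.13, 10 UMIs), past 2-fold. In that class 17.5% of all genes were at least 2-fold higher in HCH. The other libraries had 3.19 to 8.79 CPM in this class. The 10 macrophage markers there summed to 1064 CPM in HCH and 599 CPM in CCH, and their part was not tested.

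Endothelial-gated nuclei of C had 183 CPM of Icam1 (165 to 201), whereas CC and CCC had 27.7 and 50.7 CPM, H and HH 71.3 and 81.2 CPM, HC and HHC 44.3 and 72.9 CPM, CCH 79.2 CPM and HCH 44.7 CPM. C was apart from all other libraries here, including CC and CCC. The direction of the HFD difference therefore turned with the control: H was 2.56-fold lower than C, and HH was 2.25-fold lower than C but 2.93-fold (1.81 to 4.89) higher than CC. In this class 8.49% of all genes were at least 2-fold lower in H than in C, 7.56% lower in HH than in C and 16.1% higher in HH than in CC. C was also the library with the highest endothelial Nfkbia.

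**Figure D3:**
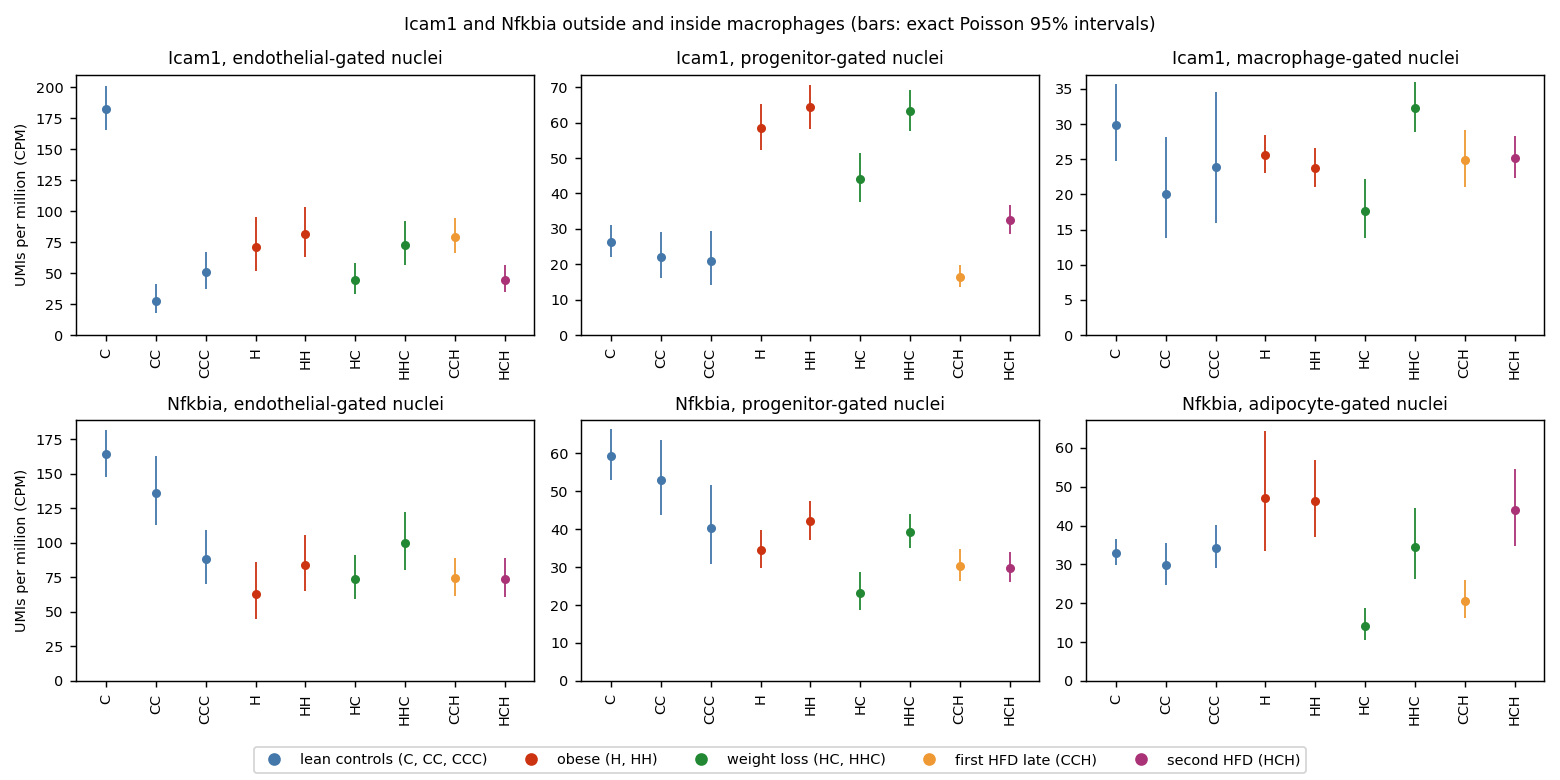
CPM of Icam1 in endothelial-, progenitor- and macrophage-gated nuclei (upper panels) and of Nfkbia in endothelial-, progenitor- and adipocyte-gated nuclei (lower panels) by library, on linear scales from 0 with exact Poisson 95% intervals. Progenitor Icam1 is 44.0 to 64.3 in H, HH, HC and HHC against 16.5 to 26.3 in the lean controls and CCH, and endothelial Icam1 is highest in C.

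Ptgs2 encodes cyclooxygenase 2, the inducible enzyme of prostaglandin synthesis (ENSMUSG00000032487, chromosome 1 from 150100031 to 150108227). Its level divided the libraries in a way that followed no diet: 75.2, 2.38 and 4.01 CPM in the lean libraries (C, CC and CCC), 2.29 and 3.33 CPM in H and HH, 51.8 and 1.01 CPM after WL (HC and HHC), 67.9 CPM in CCH and 4.97 CPM in HCH. The libraries C, CCH and HC stood far above the next library, HCH, with no overlap of intervals. They include a lean control, a WL library and a library on HFD, and both sets.

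Epithelial-gated nuclei were the class with most Ptgs2 for its size, 28.9% of the 5238 UMIs with 1.86% of all UMIs. Their level was 774 CPM in C, 28.0 in CC, 38.3 in CCC, 351 in HC and 645 in CCH. No Ptgs2 UMI was found in the epithelial-gated nuclei of H (53 nuclei), HH (14), HHC (36) or HCH (103). In C, HC and CCH the gene was also present in every other class of at least 50 nuclei, at 31.4 to 77.5 CPM in C, 20.05 to 94.7 in HC and 16.7 to 71.2 in CCH. In each of the other 6 libraries at least 1 class was at 0. Macrophage-gated nuclei followed, with 50.0 CPM in C, 31.7 in HC and 46.1 in CCH against 0.197 to 2.56 CPM elsewhere. Outside epithelial-gated nuclei the 10 epithelial markers summed to 131 CPM in C, 182 in HC and 127 in CCH, to 121 in CC and 167 in CCC, and to 15.4 to 94.7 in the other 4. Within epithelial-gated nuclei they summed to 2891 CPM in C, 4513 in HC and 3504 in CCH and to 1566 to 3203 CPM in the other 6. Their part in the Ptgs2 levels was not tested. Of epithelial-gated nuclei, 45.3% were near the limit of the gate, from 22 of 172 in HC to 66 of 97 in CCC.

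In the 6 libraries with little Ptgs2, the gene was not spread evenly over the classes. Progenitor-gated nuclei had 4.11 and 5.21 CPM in CC and CCC, 5.60 and 8.81 CPM in H and HH, 2.17 CPM in HHC and 10.7 CPM in HCH. Among classes of at least 50 nuclei other than epithelial, they were the highest in CCC, HH and HCH only. Mesothelial-gated nuclei were the highest in CC (6.61 CPM, 5 UMIs). Endothelial-gated nuclei were the highest in H (12.96 CPM, 8 UMIs) and HHC (4.29 CPM, 4 UMIs). In progenitor-gated nuclei HH exceeded CC 2.14-fold (1.05 to 4.92), where 25.7% of all genes were at least 2-fold higher. Against C, which had 64.5 CPM, HH was 7.31-fold lower (5.52 to 9.84), where 5.66% of all genes were at least 2-fold lower. HHC, of the other set, was 4.06-fold lower than HH (16 and 58 UMIs), against 9.38% of all genes. Over all nuclei, the ratios of H against C (32.8-fold lower), HC against CC (21.7-fold higher, 15.2 to 32.1) and HCH against CCH (13.7-fold lower) each have 1 of the 3 high libraries on 1 side. Without epithelial-gated nuclei the same ratios of Ptgs2 were -4.45, 4.26 and -3.37 on the log2 scale.

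**Figure D4:**
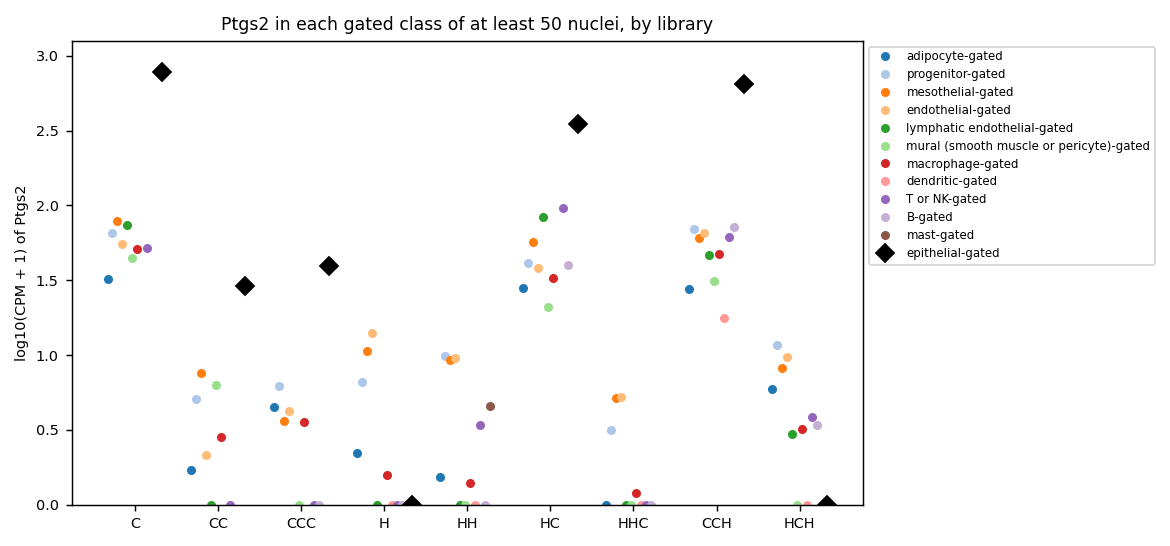
Level of Ptgs2 as log10(CPM + 1) (y axis) in every gated class of at least 50 nuclei (colours) in each library (x axis). Epithelial-gated nuclei (diamonds) reach 774, 351 and 645 CPM in C, HC and CCH, where all other classes also lie well above 0. In the other libraries several classes are at 0.

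Counted over the members, with all nuclei, H exceeded C by 2-fold in Tnf, Il6 and Il1rn (3 of 10) and was lower in Ptgs2 (1), where 25.9% of all genes tested were higher and 14.9% lower. HH exceeded CC in 6 of 10, Tnf, Il1b, Il6, Il1rn, Tnfaip3 and Icam1, against 31.8% of all genes, and none was lower, against 12.5%. Icam1 was short of 2-fold with TMM (0.94 on the log2 scale) or median-of-ratios scaling (0.88). With C in place of CC, Tnf, Il6 and Il1rn were higher in HH, against 28.6% of all genes, and Ptgs2 was lower, against 14%. HC exceeded CC in Tnf, Il1rn and Ptgs2 and was lower in Nfkbia among the 8 members with enough UMIs, against 11% and 11.2% of all genes. HHC exceeded CCC in Tnf, Il1rn, Tnfaip3 and Icam1 and was lower in Ptgs2 among 9 members, against 12.5% and 14.7%. HCH exceeded CCH in Tnf, Il1b and Il1rn and was lower in Ptgs2 among 10, against 12.9% and 5.39%. HH and HC were both set against CC, so these 2 comparisons share a control. The median log2 ratio of the members was 0.44 for H against C, 1.45 for HH against CC, 0.53 for HH against C, 0.63 for HC against CC, 0.98 for HHC against CCC and 0.54 for HCH against CCH, beside 0.21, 0.37, 0.26, -0.03, 0.01 and 0.10 for all genes tested.

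Within macrophage-gated nuclei, Tnf and Il1rn were higher and Ptgs2 lower in H than in C (8 members with enough UMIs), against 26.7% of all genes higher and 14.6% lower. Tnf, Il1rn and Tnfaip3 were higher in HH than in CC (7 members), against 30%, and none was lower, against 15.7%. With C in place of CC, the same 3 were higher in HH and Ptgs2 was lower (8 members), against 28.2% and 13.2%. Tnf, Il1rn, Tnfaip3 and Ptgs2 were higher and Nfkbia lower in HC than in CC (8 members), against 10.2% and 15%. Tnfaip3 was higher in HHC than in CCC (7 members), against 13%, and none was lower, against 11.3%. Without the CCC nucleus rich in Il1rn, Tnf and Il1rn were higher too. Tnf, Il1b and Il1rn were higher and Ptgs2 lower in HCH than in CCH (9 members), against 17.7% and 3.76%. Nfkb1, Relb and Icam1 passed in none of the 5 comparisons in this class. The 10 adipocyte markers, which count RNA of another cell type, summed to 1394 to 3935 CPM in the macrophage-gated nuclei of the lean controls and 355 to 504 CPM in H and HH. In CC they were at 3935 CPM against 971 in HC, in CCC at 1924 against 894 in HHC, and in CCH at 1218 against 809 in HCH. Their part in these results was not tested.

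**Figure D5:**
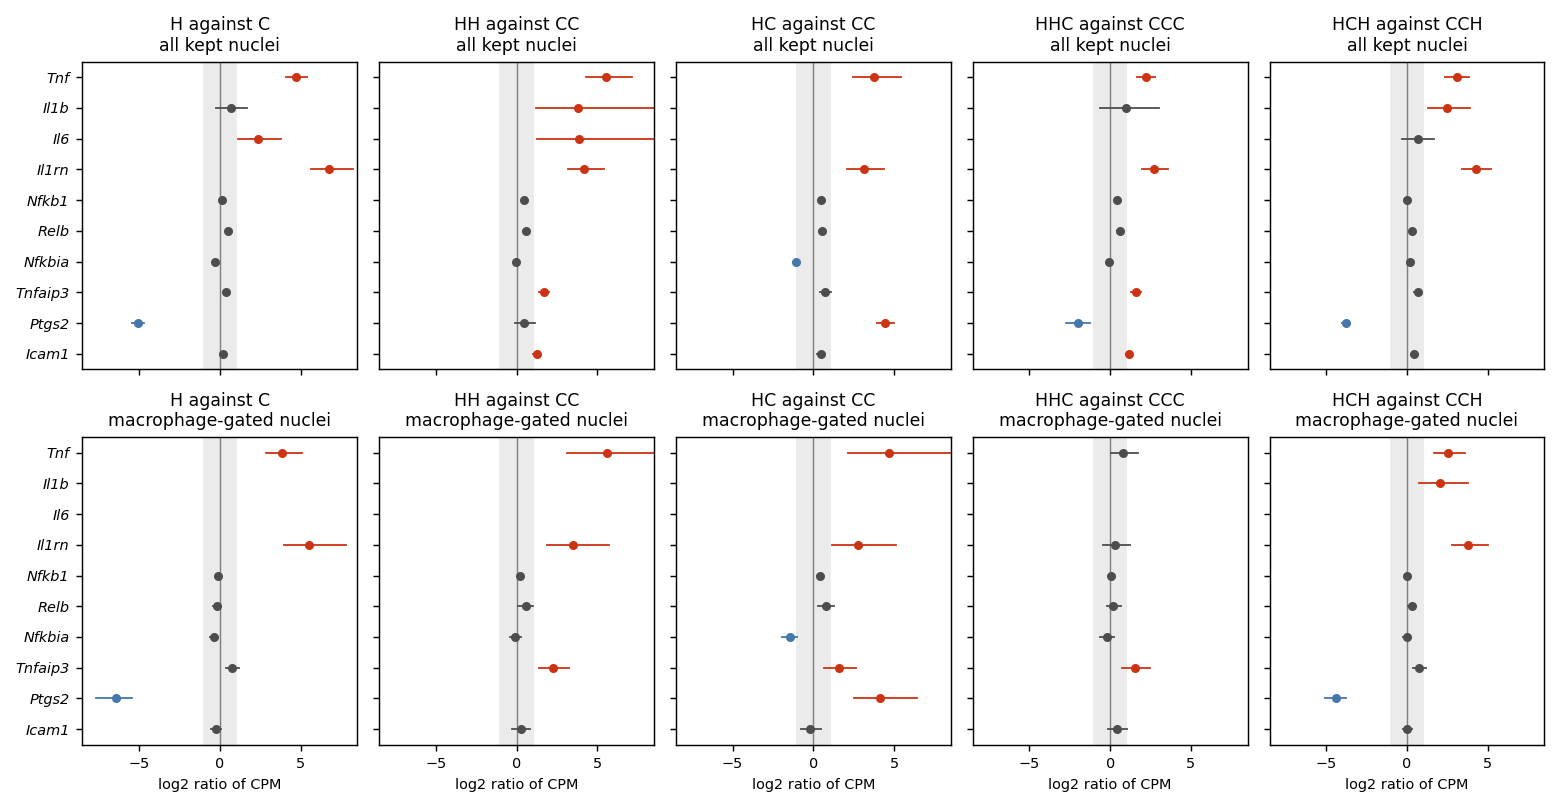
log2 ratio of CPM (x axis) of each gene with at least 20 UMIs over both libraries, for the 5 comparisons (columns), over all kept nuclei (upper row) and within macrophage-gated nuclei (lower row). Points are ratios, lines exact conditional 95% intervals (those past 8.5 run off the axis), the grey band is less than 2-fold, red is at least 2-fold higher and blue at least 2-fold lower. Tnf and Il1rn are red in all 5 comparisons over all nuclei and in 4 of 5 within macrophage-gated nuclei.

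To set the members in their pathway, 57 further genes of it (ligands, receptors, adaptors, subunits, inhibitors and targets) were measured in macrophage-gated nuclei. At least 2-fold higher were 10 of the 52 with enough UMIs in H against C (26.7% of all genes), 16 of 52 in HH against CC (30%), 12 of 52 in HH against C (28.2%), 9 of 47 in HC against CC (10.2%), 4 of 53 in HHC against CCC (13%) and 8 of 52 in HCH against CCH (17.7%). Lower, in the same order, were 5 (14.6% of all genes), 1 (15.7%), 2 (13.2%), 1 (15%), 1 (11.3%) and 0 (3.76%). The 4 of HHC against CCC include Il1a, the other IL-1 cytokine, with 21 UMIs in HHC and 0 in CCC, where the limit of 3 counts gives no fold of 2 or more, so 3 are shown to pass. Gadd45b, a stress gene induced by NF-kB, was among the highest ratios in 4 comparisons: it was 47.6 CPM in H and 2.45 in C, 10.4 in HC and 0.607 in CC, 22.0 in HHC and 4.27 in CCC, and 26.5 in HCH and 3.29 in CCH. Cxcl2, a chemokine for neutrophils, was at 42.7 CPM in H and 0.735 in C (590 and 3 UMIs). It was at 43.3 CPM in HH, at 5.08 CPM in HC and at 0 in CC. The interval of its ratio began at 19.3-fold for HH against CC and at 2.075-fold for HC against CC. For Ltb, with 71 UMIs in HH and 0 in CC, the interval began at 2.48-fold. Cxcl1 was 2.73 CPM in HCH and 0.329 in CCH.

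At the low end, Il1r1, the receptor that IL-1 signals through, was 8.75 CPM in H and 31.4 in C (3.58-fold lower, 2.77 to 4.63) and 8.27 in HH and 70.4 in CC. The 10 adipocyte markers in the same macrophage-gated nuclei summed to 355 CPM in H and 1394 in C, and to 504 in HH and 3935 in CC. Their part in the lower levels of Il1r1 and of the genes below was not tested. Vcam1, another adhesion molecule, was 16.8 CPM in H and 59.3 in C. Saa3, an acute-phase gene, was 5.92 CPM in HHC and 26.4 in CCC, and Tnfsf13b was 10.6 and 19.6 CPM. Myd88, the adaptor of IL-1 and Toll-like receptors, was 3.14 CPM in HC and 10.3 in CC (13 and 17 UMIs), and Nlrp3 was 4.59 and 9.10 CPM. Bcl3 was 13.8 CPM in HCH and 25.8 in CCH, Il6ra, the IL-6 receptor chain, was 280 and 496 CPM, and Il33 was 4.18 CPM in HH and 7.28 in CC. Some of these genes went the other way elsewhere. Counted as at least 2-fold higher were Vcam1 and Saa3 in HH against CC (30% of all genes) and Saa3 in HH against C (28.2%). Saa3 and Il33 were so counted in HCH against CCH (17.7%).

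The genes whose levels were most like those of each member were taken from 90 sums of a class in a library, by the Pearson correlation of log2(CPM + 1). The sums share libraries and depth, so the coefficients are descriptions only. Tnf was most like 4930403D09Rik (0.809) and Rac2 (0.801), Il1rn like Slc15a3 (0.724) and Wfs1 (0.706), and Tnfaip3 like Cd226 (0.631) and Il12rb2 (0.621). Nfkb1 was most like Crlf3 (0.850) and Elf1 (0.839), and Relb like Dhx57 (0.659) and Birc3 (0.646). For Nfkbia these genes were Gbp5 (0.602) and Rbck1 (0.599), and for Icam1 Ifi203 (0.756) and Mndal (0.754). Ptgs2 was most like Akr1b7 (0.877), known from the vas deferens and adrenal gland, and Ptgs2os (0.850), a transcript that starts beside Ptgs2 on the opposite strand. Il1b and Il6 had fewer than 500 UMIs and were not compared in this way.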

How the data were processed

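The deposited files hold raw UMI counts per gene and nucleus for 9 libraries, made by the authors, per the submitters' processing notes, with Cell Ranger 6.1.2 on mm10 (introns included), with Seurat 4.1.0 used later. From these counts, nuclei with 500 to 3000 genes and at most 40000 UMIs were kept, and doublets were removed with Scrublet (scanpy 1.11.5), by its own threshold or, where that marked under 0.5%, by an expected rate of 0.8% per 1000 nuclei. The expected rate was used in CC, CCC, HC and HHC, all of set S019 (3.31% to 7.28% removed). The own threshold was used in all libraries of set S075 (2.09% to 5.58%). Comparisons that cross the sets thus also cross this difference in filtering. Nuclei were gated into 14 classes with 150 markers (at least 4 UMIs over 3 markers, 2-fold above the share in other classes, and a lead over the next class), a rule set after the data had been seen. A class cut from such a score is a range of nuclei, not a type. Control animals are called chow-fed in the labels, while the series design speaks of low-fat diet.

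UMIs were summed per library and class. With 1 library per group there was no test; ratios of at least 2-fold with 20 or more UMIs over both libraries were counted. Members were matched by symbol; pathway genes were named when among the highest or lowest 2 ratios in macrophage-gated nuclei, and alike genes were the 2 with the highest correlation, among genes with at least 500 UMIs. The members and lists were chosen with earlier results of these data known. Positions are from GENCODE (32158 of 32285 features matched, GRCm38). Alternatives used edgeR 4.0.16 factors, other filters, classes from clusters and another control. Python 3.11.15 and R 4.3.3 were used.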

Additional observations from a re-analysis of the deposited data

Results flagged for a closer look

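Ptgs2 moved in opposite directions after WL, and this difference was not tested. Over all nuclei its log2 ratio was 4.44 for HC against CC and -1.99 for HHC against CCC. In HC the gene was also present in every class of at least 50 nuclei. Nfkb1 in macrophage-gated nuclei had a log2 ratio of -0.13 for H against C and 0.21 for HH against CC, a difference that was not tested either. HH and CC belong to different sets, and against C, of its own set, HH had a log2 ratio of -0.05, the direction of H.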

How the results depend on the processing

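No paired analysis was possible because each group has 1 library. The 10 alternatives covered ratios over all nuclei and in macrophage-gated nuclei only. Among 658 such values none of a called ratio changed sign, and 27 of ratios short of 2-fold did. The largest of these moves was Ptgs2 in HH against CC, from 0.48 to -4.50 with C as the control. Beyond their interval moved 59 values, and 4 of 39 calls were lost and 5 others gained under at least 1 alternative. Members with fewer than 20 UMIs over both libraries in the main setting were left out of the calls gained. Ptgs2 in macrophage-gated nuclei of HH against CC was left out in this way (5 and 3 UMIs). With C as the control it was called lower in HH. No alternative was run in other classes, where endothelial Icam1 and progenitor Ptgs2 of HH lay above CC but below C. The count of members past 2-fold in macrophage-gated nuclei of HHC against CCC was 1. It became 3 with no upper limit on genes (Tnf 1.16 and Il1rn 1.02 on the log2 scale), 2 with classes from clusters (Tnf 1.24), 2 in nuclei with at least 1000 UMIs (Tnf 1.01) and 3 without nuclei rich in 1 member (Tnf 1.30, Il1rn 3.13), the last 2 settings chosen after seeing the data. The latter left out 1 nucleus of CCC and 2 of HCH that held at least 10 UMIs and at least 1 in 5 of the UMIs of a member; it turned Il6 in HCH against CCH from 0.65 to -0.62 and moved Il1rn in HHC against CCC over all nuclei to 4.72. Il1b in HHC against CCC over all nuclei (0.98) passed 2-fold with TMM (1.01), median-of-ratios (1.02) and no upper limit on genes (1.43), and Tnfaip3 in macrophage-gated nuclei of HCH against CCH (0.77) with classes from clusters (1.13). The causes were not tested. Over all nuclei, HH against C in place of CC lost Il1b, Tnfaip3 and Icam1 and added Ptgs2 as lower. TMM and median-of-ratios scaling moved Icam1 in HH against CC to 0.94 and 0.88, and TMM moved Nfkbia in HC against CC to -0.98, all short of 2-fold, and shifted the median of all genes by -0.29 in HH against CC. Depth limits Il1b and Il6 in all libraries and most members in LAM-gated nuclei of C and CC, 32 and 14 nuclei.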
